A study of Mus musculus with 472 samples.

Results

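NMDA receptors are glutamate-gated cation channels built from subunits of 7 genes, and all 7 were read in 472 single retinal ganglion cells of the mouse: Grin1, which encodes GluN1; Grin2a, Grin2b, Grin2c and Grin2d, which encode the GluN2 subunits A to D; and Grin3a and Grin3b, which encode the GluN3 subunits. They were taken by symbol from the 55450 genes of the deposited table. Every cell came from C57BL/6J mice of 7 to 9 weeks, with no transgene, treatment or other genotype named. A patch pipette recorded the light responses of each cell in the flat retina and then drew up its content, and the RNA was read by Smart-seq2, a method that copies full-length poly(A) RNA from 1 cell. The labels name no animals, so the 472 cells count as 1 sample: values below are descriptions, no difference between cells was tested, and all intervals are 95% intervals that cover counting error only.

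A working NMDA receptor needs GluN1 together with GluN2 or GluN3 subunits. GluN2 subunits bind glutamate and set the channel's kinetics and its block by magnesium, while GluN1 and GluN3 bind glycine or D-serine, and GluN3 lowers calcium entry and magnesium block. In ganglion cells NMDA receptors carry part of the excitation that bipolar cells deliver, and they are known for their part in glutamate-driven ganglion cell death.

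The 7 genes are related but far apart in sequence. Over the aligned coding sequences of GENCODE release M21, identity between members ran between 42.3% for Grin1 with Grin3a and 64.9% for Grin2c with Grin2d. The longest run of bases that a pair of members shared was 34, for Grin2b with Grin2c, shorter than the 150-base reads.

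The genes lie apart in the genome (mm10). Grin1 is on chromosome 2, 25291181 to 25319187; Grin2a on chromosome 16, 9567898 to 9995560; Grin2b on chromosome 6, 135713233 to 136173511; and Grin3a on chromosome 4, 49661611 to 49845744. Grin2c is on chromosome 11, 115249169 to 115267243, and Grin2d on chromosome 7, 45831883 to 45878378. These 6 genes are on the minus strand, and Grin3b is on the plus strand of chromosome 10, 79970715 to 79977190. Whether reads were counted by strand is not stated by any source used here, so reads in stretches shared with a gene on the opposite strand cannot be told apart: Grin1os covers 13.5% of the exon bases of Grin1, Gm45441 covers 9.66% of those of Grin2d, and Tmem259, positive in 33.1% of cells, covers 32.1% of those of Grin3b.

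Cells held a median of 5184802 gene counts (58907 to 13004888) and 5554.5 genes at 10 CPM (counts per 1000000 gene counts) or more, the level called positive throughout. The 10 ganglion cell genes checked, among them Rbpms and Slc17a6, were each positive in 76.9% to 98.5% of cells, and 459 of 472 cells had 5 or more of them. Libraries fall by their names into 5 groups of 234, 98, 62, 59 and 19 cells, called runs A to E here. Taking these groups as sequencing runs is a reading of the names alone. Run D stood apart with a median of 3024 positive genes, against 5254 to 6563 in the other runs. Marker genes of other retinal cells were read as well: 3 or more of 8 Muller glia markers in 375 cells, of 8 rod markers in 291, of 8 amacrine markers in 202 and of 8 bipolar markers in 157, and shares of the members with and without such markers are given below.

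GluN1 RNA was the family's common component. Grin1 was positive in 408 of 472 cells (86.4%, 83.0% to 89.4%), with a median of 209 CPM, quartiles of 67.5 and 343 CPM and a highest value of 1395 CPM. Only 18 cells lay between 1 and 10 CPM, and 319 were at 100 CPM or more. By run the share was lowest in run D at 59.3%, next in run B at 83.7% and run A at 90.6%, and highest in run E at 94.7% and run C at 98.4%. Of the 7 members 2, Grin1 and Grin2a, passed 50% of cells, against 7.76% of all genes and 19.2% of the 22436 genes positive in any cell.

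The 64 cells with Grin1 under 10 CPM had fewer genes detected. Their median was 2321 positive genes, against 5807 in the 408 Grin1-positive cells, and 24 of the 64 belonged to run D. Even so, 54 of the 64 had 5 or more of the 10 ganglion cell genes, 26 were positive for a GluN2 gene and 23 had 3000 or more positive genes. With cells split into quartiles by the number of positive genes, Grin1 was positive in 61.0%, 86.4%, 98.3% and 100% of the 118 cells of each, low to high. All 118 cells of the top quartile thus had Grin1 RNA, and its median level was 59.5, 235, 223 and 213 CPM in the same order.

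The GluN2 genes split into a common pair and a rare pair. Grin2a was positive in 252 cells (53.4%, 48.8% to 58.0%) and Grin2b in 233 cells (49.4%, 44.8% to 54.0%), intervals that overlap. Grin2a ran between 35.6% of cells in run D and 63.2% in run E, and Grin2b between 30.5% in run D and 61.3% in run C. Grin2d was positive in 28 cells (5.93%, 3.98% to 8.46%), with a highest value of 93.4 CPM, and Grin2c in 3 cells (0.636%, 0.131% to 1.85%).

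The common pair differed in how the level was spread over cells. For Grin2a, 192 cells were under 1 CPM (115 of them at 0), 28 lay between 1 and 10 CPM, 103 between 10 and 100 CPM, and 149 reached 100 CPM or more, with a highest value of 2029.9 CPM. Grin2b lay more in the middle range and less at the top: 154 cells were under 1 CPM, 85 lay between 1 and 10 CPM, 194 between 10 and 100 CPM, and 39 reached 100 CPM, with a highest value of 535 CPM. For each of 10796 genes, the excess of the standard deviation on the log2(CPM + 1) scale over genes of like mean level was ranked. The excess of Grin2a was above that of 99.1% of these genes, ranking 101, while that of Grin2b was above that of 10.2%. Grin1, by the same measure, lay in the middle at 57.2%, and Grin3a at 71.3%.

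**Figure D1:**
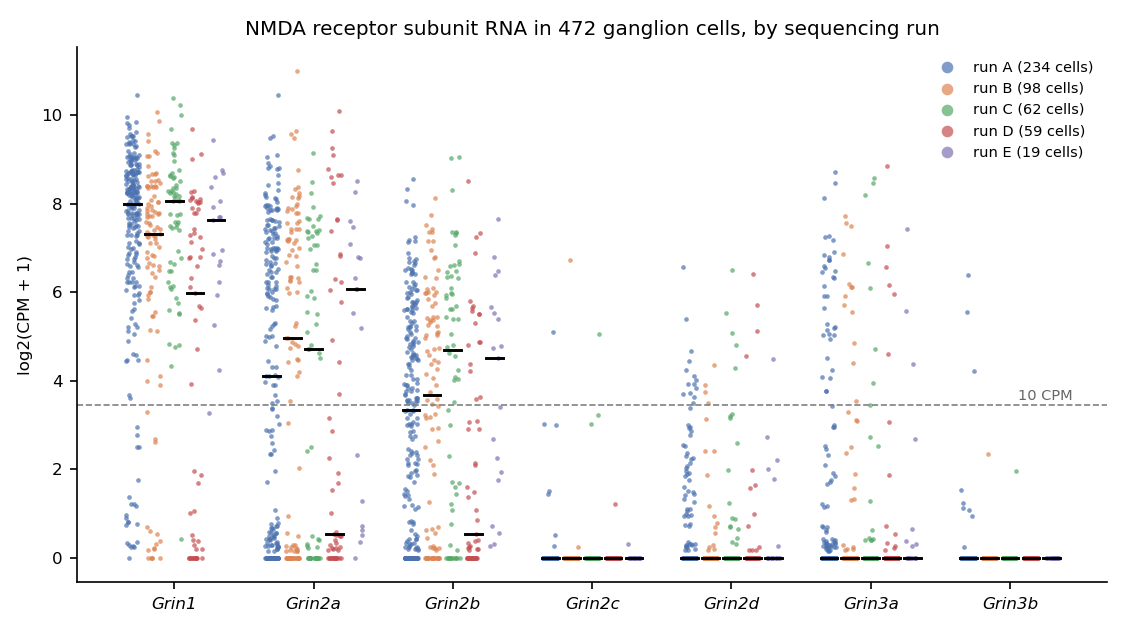
Level of each NMDA receptor subunit gene (x axis) in each cell on a log2(CPM + 1) scale (y axis). Points are coloured by run, a group of library names, with black bars at run medians and a dashed line at 10 CPM. Grin1 is high in most cells, Grin2a reaches 100 CPM in 149 cells and is under 1 CPM in 192, Grin2b lies between 10 and 100 CPM in 194, and Grin2c and Grin3b are positive in 3 cells each.

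Grin2c and Grin3b were the rarest members. The 3 Grin2c-positive cells were RGC068 of run B with 105 CPM, RGC162 of run C with 32.3 CPM and RGC359 of run A with 33.6 CPM, and each was also positive for Grin1 and Grin2a. The 3 Grin3b-positive cells were RGC231, RGC241 and RGC357, all of run A, with 83.0, 46.1 and 17.7 CPM of Grin3b, and each was also positive for Grin1. These 2 of 7 members fell under 1% of cells, as did 23.5% of the genes that were positive somewhere.

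Grin3a was the commoner GluN3 gene. It was positive in 65 cells (13.8%, 10.8% to 17.2%), between 10.2% in run D and 15.8% in run E, with a median of 68.5 CPM among positive cells and a highest value of 458 CPM. It was at 0 in 324 cells and at 100 CPM or more in 21. Its share climbed with the number of positive genes, from the lowest quartile to the highest at 3.39%, 11.02%, 14.4% and 26.3%, so its share moved with the number of genes detected. Grin2d showed 5.08%, 5.08%, 4.24% and 9.32% over the same quartiles, with overlapping intervals.

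**Figure D2:**
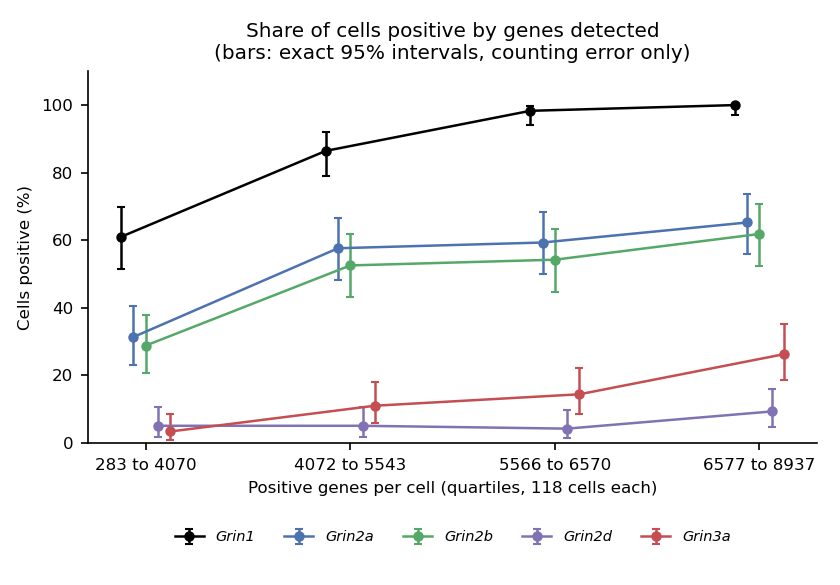
Share of cells positive for 5 subunit genes (y axis, %) in quartiles of the number of positive genes per cell (x axis, 118 cells each); bars are exact 95% intervals. Grin1 reaches 100% in the top quartile, Grin2a 65.3%, Grin2b 61.9%, Grin3a 26.3% and Grin2d 9.32%.

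Levels of different genes were compared per kilobase of exon. The medians over 472 cells were 21.6 CPM per kb for Grin1, 1.10 for Grin2a and 0.377 for Grin2b, and 0 for the other 4 members. Among positive cells only, the medians were 25.05 CPM per kb for Grin1, 7.08 for Grin2a, 1.72 for Grin2b, 2.88 for Grin2d and 5.58 for Grin3a. Grin1 exceeded the sum of the 4 GluN2 genes per kb in 363 of 408 Grin1-positive cells (89.0%, 85.5% to 91.8%), and in 387 of them when the longest transcript, 4.28 kb for Grin1, replaced the 9.70 kb of all its annotated exons. Some cells ran the other way: RGC251 of run A had 4.66 CPM of Grin1 with 1404 CPM of Grin2a and 321 CPM of Grin2b, and RGC411 of run A had 0.968 CPM of Grin1 with 355 CPM of Grin3a.

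Most cells held RNA for GluN1 and a GluN2 subunit together. At least 1 GluN2 gene was positive in 336 cells (71.2%, 66.9% to 75.2%), and Grin1 with at least 1 of them in 310 (65.7%, 61.2% to 70.0%). Of 22 combinations of the 5 members positive in over 1% of cells, the commonest was Grin1 with Grin2a and Grin2b, in 124 cells. Grin1 stood without the other 4 in 79 cells, with Grin2a in 69 and with Grin2b in 51, and 36 cells, with a median of 1532 positive genes, had none. Among the 408 Grin1-positive cells, 98 (24.0%, 19.95% to 28.5%) had no GluN2 gene, and their median was 5329 positive genes, against 5916 in the 310 Grin1-positive cells with one. Of these 98, 19 had Grin3a and 78 had no GluN3 gene either, so for 78 cells, with a median of 4858 positive genes, no partner of GluN1 was read at 10 CPM.

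**Figure D3:**
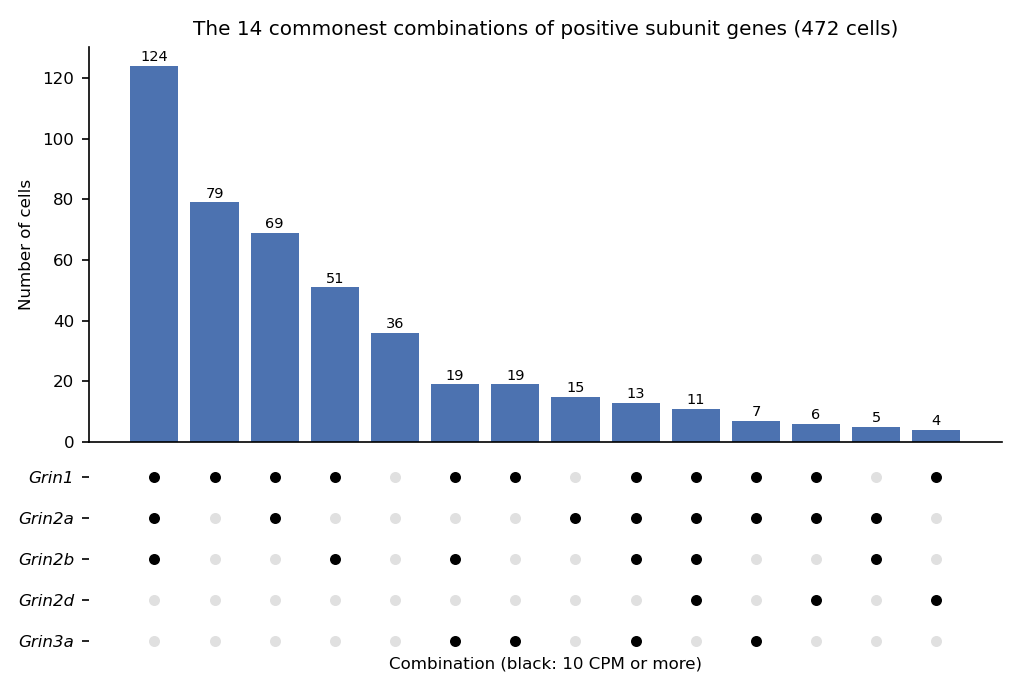
Number of cells (bars, y axis) with each of the 14 commonest combinations of positive genes among Grin1, Grin2a, Grin2b, Grin2d and Grin3a, shown by black dots under each bar. Grin1 with Grin2a and Grin2b leads with 124 cells, followed by Grin1 without the other 4 in 79.

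The mixture of Grin2a and Grin2b varied widely between cells. In the 311 cells with 20 CPM or more of Grin2a and Grin2b summed, Grin2a made up a median of 81.2% of the summed level per kb, with quartiles of 36.8% and 96.9%. It made up over 90% in 124 cells and under 10% in 51, with 136 cells between. By run the median lay between 54.5% in C and 87.3% in D. Cells with nearly all Grin2a, cells with nearly all Grin2b and mixed cells were thus all found.

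Grin2a and Grin2b met in the same cell more often than independent shares within runs give. They were positive together in 155 cells (131.6 to 181.4), against 126.8 expected from independent shares within runs, a ratio of 1.22. The shares of both genes rose over the quartiles of positive genes. The number expected within these quartiles was 132.0, just inside the interval, a ratio of 1.17. The cause was not tested. Grin2b was positive in 61.5% of the 252 Grin2a-positive cells and in 35.5% of the 220 Grin2a-negative cells. Over 472 cells, which share run and detection, the Spearman correlation of the levels was 0.286, and 0.252 in the 399 cells with 3000 or more positive genes.

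Grin2a and Grin3a met less often than independent shares give, with a lower ratio in run A than in the other runs. They were positive together in 22 cells (13.8 to 33.3), against 35.1 expected within runs and 39.1 within quartiles of positive genes, ratios of 0.627 and 0.563. The ratio within runs was 0.374 in run A and 0.916 in the other 4 runs. These ratios carry no intervals here, so whether run A differs from the other runs beyond counting error was not tested. With positive set at 1 CPM the ratio was 0.869. Grin2a was positive in 33.8% (22.6% to 46.6%) of the 65 Grin3a-positive cells, against 56.5% (51.5% to 61.4%) of the 407 Grin3a-negative cells. Its median level was 0.662 CPM in Grin3a-positive cells and 29.4 CPM in Grin3a-negative cells, with highest values of 803 and 2029.9 CPM, so the levels overlap. The median number of positive genes was 6558 in Grin3a-positive cells and 5413 in Grin3a-negative cells. The cause of the shortfall was not tested. Grin2b was positive in 53.8% of Grin3a-positive cells and 48.6% of Grin3a-negative cells, and Grin1 in 95.4% and 85.0%, with overlapping intervals for both. In the other 8 pairs of the 5 members the interval of the observed number held the number expected within runs.

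**Figure D4:**
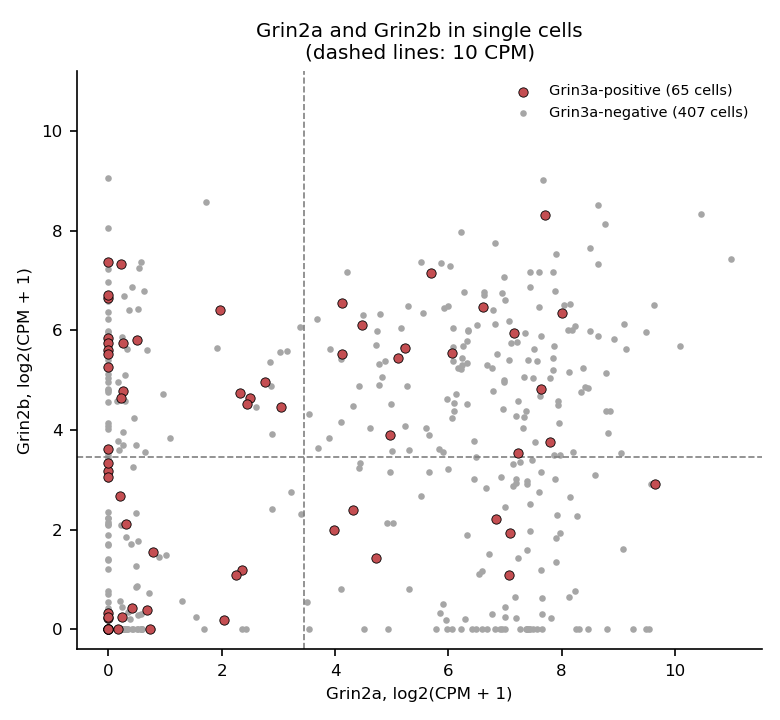
Grin2a (x axis) against Grin2b (y axis) in each of 472 cells, both as log2(CPM + 1), with 65 Grin3a-positive cells in red and dashed lines at 10 CPM. Grin3a-positive cells lie mostly left of the vertical line, where Grin2a is under 10 CPM, and are spread over the range of Grin2b.

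The 10 cells highest in Grin3a held 178 to 458 CPM of it, and none was from run E. Of the 10, 9 were positive for Grin1, 6 for Grin2b and 3 for Grin2a. The highest, RGC417 of run D, had 803 CPM of Grin2a, the fourth highest Grin2a value of all cells. The next, RGC338 of run A, had 630.3 CPM of Grin1, 0 of Grin2a, 103.998 CPM of Grin2b and 417 CPM of Grin3a.

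Ganglion cells come in many classes, and 11 sets of cells picked by class genes other than the members were set against all other cells. The sets overlap, and each is compared by the share of positive cells and by mean CPM. Of the members, 4 (Grin1, Grin2a, Grin2b, Grin3a) were positive in 10% or more of cells and entered a count of genes past 2-fold in mean CPM among 11149 genes. Past 2-fold were Grin2a and Grin3a in the Tbr1 set, and Grin3a in 3 further sets; Grin1 and Grin2b were within 2-fold in all 11. Over the 11 sets 0.637% to 2.96% of genes were 2-fold or more higher and 1.35% to 7.68% were 2-fold or more lower.

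Cells positive for Tbr1, a T-box transcription factor of several ganglion cell types, had less Grin2a and more Grin3a. Grin2a was positive in 27 of 79 Tbr1-positive cells (34.2%, 23.9% to 45.7%), against 57.3% (52.2% to 62.2%) of the other 393, a difference of -23.1 percentage points (-33.7 to -11.0). Its mean was 35.5 CPM in Tbr1-positive cells and 109 CPM in the others, past the 2-fold line that 3.76% of genes passed downward in this set. Grin3a was positive in 29.1% (19.4% to 40.4%) of Tbr1-positive cells, against 10.7% (7.81% to 14.2%) of the others, a difference of 18.4 points (8.92 to 29.6). Its mean was 33.4 CPM in Tbr1-positive cells and 10.5 CPM in the others, a 3.19-fold difference, where 1.26% of genes were 2-fold or more higher. Grin2b did not differ beyond counting error, at 48.1% and 49.6%, a difference of -1.52 points (-13.3 to 10.4).

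These differences were larger in run A than outside it. Among its 49 Tbr1-positive cells Grin2a was positive in 26.5%, against 60.5% of the other cells of run A, and Grin3a in 34.7%, against 9.73%. Outside run A the shares were 46.7% of the 30 Tbr1-positive cells and 54.3% of the others for Grin2a, and 20% and 11.5% for Grin3a, in the same direction but with differences whose intervals held 0 (-25.4 to 10.8 and -3.19 to 26.2 points). Among cells with 3 or more Muller glia markers the differences were -25.5 and 18.4 points. Tbr1-positive cells had a median of 6048 positive genes, against 5455 in the others. With 3 or more of 8 amacrine markers were 53.2% of Tbr1-positive cells and 40.7% of the others; with Pax6, positive in 94.5% of all cells, left out, 24.1% and 26.7%.

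The lower share of Grin2a in Grin3a-positive cells had the same direction inside and outside the Tbr1 set. Among Tbr1-positive cells, Grin2a was positive in 4 of 23 Grin3a-positive cells (17.4%, 4.95% to 38.8%) and in 23 of 56 Grin3a-negative cells (41.1%, 28.1% to 55.02%). Among Tbr1-negative cells it was positive in 18 of 42 Grin3a-positive cells (42.9%, 27.7% to 59.0%) and in 207 of 351 Grin3a-negative cells (59.0%, 53.6% to 64.2%). Both pairs of intervals overlap, and in each the joint number was within counting error of that expected within runs (4, with 1.09 to 10.2, against 7.37; and 18, with 10.7 to 28.4, against 24.5).

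The Spp1 and Kcng4 set, genes that mark alpha-type ganglion cells, shared 39 of its 106 cells with the Tbr1 set. The set had a median of 6462.5 positive genes, against 5365 in the other cells. Grin3a was positive in 24.5% (16.7% to 33.8%) of its cells, against 10.7% (7.69% to 14.3%) of the other 366, with means of 23.1 and 11.8 CPM, 1.96-fold apart; without run A the difference in share was 4.52 points (-6.68 to 24.1). Of the set 96.2% had 3 or more Muller glia markers, against 74.6% of the other cells, and 51.9% had 3 or more amacrine markers, against 40.2%. Among cells with 3 or more Muller glia markers Grin3a was positive in 24.5% of the set and 13.2% of the others, a difference of 11.3 points (2.71 to 21.1). In the 39 cells that were also Tbr1-positive, 38.5% (23.4% to 55.4%) had Grin3a and 30.8% had Grin2a. In the 67 that were not, 16.4% (8.49% to 27.5%) had Grin3a and 61.2% had Grin2a, against 9.51% (6.55% to 13.2%) and 56.4% of the 326 cells in neither set, with overlapping intervals for both. Grin1 was positive in 93.4% of the Spp1 and Kcng4 set and 84.4% of the other cells, a difference of 8.97 points over all cells. Within run A this difference was 1.33 points.

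Cells positive for both Mmp9 and Htr1d had the highest shares of both common GluN2 genes among the 11 sets. Grin2a was positive in 78 of 110 (70.9%, 61.5% to 79.2%), against 48.1% (42.8% to 53.4%) of the other 362, and Grin2b in 64.5% (54.9% to 73.4%), against 44.8% (39.6% to 50.04%). Both held within run A, at 69.8% and 47.4% for Grin2a and at 63.5% and 43.9% for Grin2b. Over 11 alternative settings the difference lay between 17.4 and 24.5 points for Grin2a. For Grin2b it varied more, between 3.45 and 22.2 points. The means were less far apart, at 113 and 91.8 CPM for Grin2a and 43.8 and 30.3 CPM for Grin2b, within 2-fold. The set had a median of 6172.5 positive genes, against 5398.5 in the other cells. Grin3a had means of 5.50 CPM in the set and 17.0 CPM in the other cells, past 2-fold lower like 2.95% of genes, though its shares, 9.09% and 15.2%, had overlapping intervals, and without cells with amacrine markers the share was 0.675 points higher in the set. Grin2d was positive in 2 of 110 cells of the set (1.82%) and 7.18% of the other cells, a difference of -5.36 points (-8.76 to -0.277).

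Pou4f3-positive cells, which hold RNA of a POU-domain factor, had Grin2a in 67.8% (58.5% to 76.2%) of 115 cells, against 48.7% (43.4% to 54.1%) of the other 357. Within run A these shares were 73.0% and 46.2%, and outside it 61.5% and 51.1%, a difference of 10.5 points (-4.85 to 24.4). Grin2b was at 53.0% and 48.2%, within counting error. Pou4f3-positive cells had a median of 6142 positive genes, against 5224 in the others. The mean of Grin3a was 7.35 CPM in Pou4f3-positive cells and 16.6 CPM in the others, past 2-fold lower like 1.59% of genes, with shares of 11.3% and 14.6%; without run A the share was 1.10 points higher in Pou4f3-positive cells.

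Cells positive for the activity-induced factor Npas4 had Grin1 in 96.7% of 92 cells, against 83.9% of the other 380, Grin2a in 65.2%, against 50.5%, and Grin2b in 60.9%, against 46.6%. For Grin2b the shares were 52.2% and 48.4% within run A and 69.6% and 44.8% outside it, and among cells with 3000 or more positive genes the difference was 8.22 points (-3.49 to 19.2), with 10.5 points (-1.09 to 21.1) for Grin2a. The means of Grin2a were nearly equal, at 96.8 and 96.6 CPM. Npas4-positive cells had a median of 6109.5 positive genes, against 5413.5 in the others.

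The 87 cells without Pou4f1 had lower shares of Grin1, Grin2a, Grin2b and Grin3a, and also fewer positive genes. Grin1 was positive in 66.7%, against 90.9% of the 385 Pou4f1-positive cells, Grin2a in 34.5%, against 57.7%, Grin2b in 36.8%, against 52.2%, and Grin3a in 5.75%, against 15.6%. The mean of Grin3a was 5.65 CPM in cells without Pou4f1 and 16.3 CPM in the others, past 2-fold lower like 7.68% of genes. The median number of positive genes was 4137 in cells without Pou4f1 and 5773 in the others. Among cells with 3000 or more positive genes, the difference in the Grin1 share was -8.08 points, against -24.2 over all cells.

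In the other 5 sets the intervals of the differences in Grin2a, Grin2b and Grin3a held 0 at 10 CPM over all cells, though not under every alternative. The Col25a1 and Cdh6 set, genes found together in direction-selective ganglion cells, came nearest, with Grin2a in 66.0% of 50 cells and 51.9% of the other 422 (14.1 points, -0.527 to 26.6) and Grin3a in 22.0% and 12.8% (9.20 points, -0.692 to 22.7); at 1 CPM its Grin2a difference was 23.1 points (9.29 to 33.1). The Hpcal4 and Kctd8 set had Grin2b in 57.1% of 105 cells and 47.1% of the other 367 (10.0 points, -0.830 to 20.4), and without run A the difference was 20.6 points (5.59 to 33.9). Opn4 or Eomes, which mark the melanopsin-expressing class, gave 52.0% and 53.6% for Grin2a (-1.65 points, -13.8 to 10.3) and 17.3% and 13.1% for Grin3a (4.24 points, -3.60 to 14.8). Grin1 was higher beyond counting error in 8 of the 11 sets, by 8.20 to 12.9 points, and these 8 sets also had more positive genes, with medians of 6045 to 6535 in the sets and 5137 to 5474 in the other cells. Among cells with 3000 or more positive genes the interval of the Grin1 difference held 0 in each of these 8 sets.

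**Figure D5:**
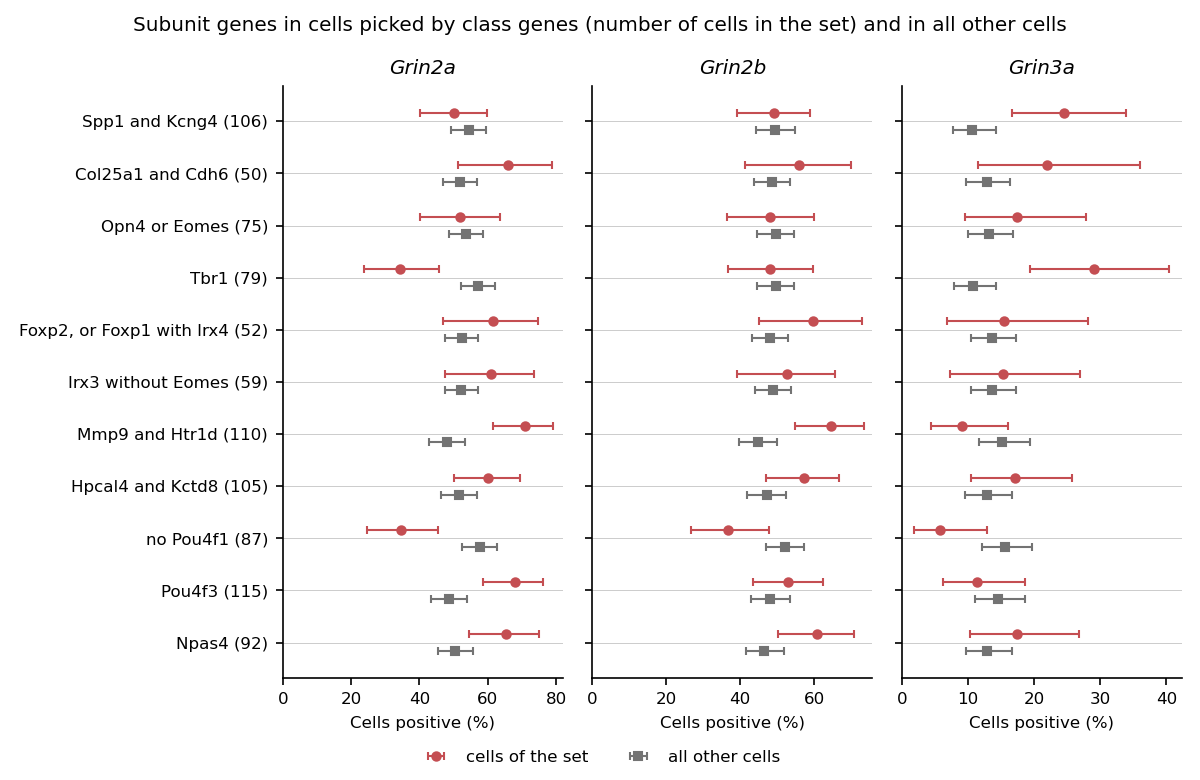
Share of cells positive (x axis, %) for Grin2a, Grin2b and Grin3a in 11 overlapping cell sets (red circles, set size in brackets) and in all other cells (grey squares), with exact 95% intervals. The Tbr1 set stands low in Grin2a at 34.2% and high in Grin3a at 29.1%, and the Mmp9 and Htr1d set high in Grin2a at 70.9% and Grin2b at 64.5%.

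Among markers of other retinal neurons, those of amacrine and bipolar cells moved with Grin2a. Grin2a was positive in 63.9% (56.8% to 70.5%) of the 202 cells with 3 or more of 8 amacrine markers, against 45.6% (39.5% to 51.7%) of the other 270, and in 63.1% (54.999% to 70.6%) of the 157 with 3 or more of 8 bipolar markers, against 48.6% (42.9% to 54.2%) of the other 315. The summed level of the 7 amacrine markers other than Pax6 ran between 0 and 2611 CPM, with a median of 106 CPM, in Grin2a-positive cells, and between 0 and 2836 CPM, with a median of 40.5 CPM, in Grin2a-negative cells. Tfap2a, Slc32a1 and Chat had medians of 0 in both groups, and none of the 7 was at 0 in all cells of either. In the 156 cells with none of these 7 markers positive, Grin2a was still positive in 44.2% (36.3% to 52.4%) and Grin3a in 11.5% (6.98% to 17.6%). Cells with amacrine markers also had more positive genes, 5970 against 5152 by medians. Grin3a was positive in 15.3% of cells with amacrine markers and 12.6% of the others, and Grin2b in 54.0% and 45.9%, with overlapping intervals. By rod markers, the shares of Grin1, Grin2a, Grin2b and Grin3a in cells with 3 or more and in cells with none had overlapping intervals.

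Shares of 4 members were higher in cells with 3 or more of the 8 Muller glia markers. Clu, Glul, Dkk3 and Apoe were positive in 91.1%, 82.6%, 78.6% and 57.2% of all cells. Rlbp1 was positive in 40.5%, and Aqp4, Sox9 and Slc1a3 in 12.3%, 13.1% and 19.1%. A cell can thus reach 3 or more with markers that most cells hold. Whether the split reflects glial RNA was not tested. It is a count of markers, and most cells had 3 or more of them. In the 375 cells with 3 or more of them, against the other 97, Grin1 was positive in 90.4% and 71.1%, Grin2a in 56.8% and 40.2%, Grin2b in 52.8% and 36.1%, and Grin3a in 16.3% (12.7% to 20.4%) and 4.12% (1.13% to 10.2%). The cells with these markers also had more positive genes, 5834 against 3780 by medians. Among cells with 3000 or more positive genes the differences were 4.99 points for Grin1 (-1.07 to 15.3), 16.5 for Grin2a (2.91 to 29.4), 12.1 for Grin2b (-1.52 to 24.98) and 10.7 for Grin3a (0.780 to 16.7). The summed level of the 8 markers had a median of 958 CPM (142 to 18717) in Grin3a-positive cells and 981 CPM (3.57 to 48247) in Grin3a-negative cells; Aqp4 and Sox9 had medians of 0 in both, and none of the 8 was at 0 in all cells of either.

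Grin2d had a higher share in the few cells with microglia markers, a difference that rests on 4 cells. It was positive in 4 of the 11 cells with 3 or more of 6 microglia markers (36.4%, 10.9% to 69.2%), against 5.21% (3.36% to 7.64%) of the other 461. The summed level of the 6 markers had a median of 0 CPM and a highest value of 1088 CPM in the 28 Grin2d-positive cells, 16 of them at 0 for every marker, and a median of 0 and a highest value of 3426 CPM in the 444 others. None of the 6 markers was at 0 in all cells of either group. In the 421 cells with no microglia marker positive, Grin2d was positive in 20 (4.75%, 2.93% to 7.24%). With 3 or more of 4 astrocyte markers it was positive in 2 of 11 cells (18.2%, 2.28% to 51.8%). The share was 5.64% (3.72% to 8.15%) in the 461 cells without them, with overlapping intervals.

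The genes that anchor NMDA receptors at synapses and carry their signal were read alongside. Of genes positive in any cell 19.2% passed 50% of cells, and their median share was 9.75%. Of 14 scaffold genes 6 passed 50%, with a median share of 33.7%. Shank1 led with 89.6%, ahead of Dlg2 and Dlgap1 with 77.8% each, Dlg4, which encodes PSD-95, with 63.6%, Dlgap4 with 61.2% and Dlgap3 with 57.8%. Shank3 was positive in 10.2%, Dlg3 in 10.6% and Neto1, an auxiliary subunit, in 9.75%. Of 12 kinase and calcium effector genes, 8 passed 50%, with a median share of 80.0%. The CaMKII genes, kinases that calcium through NMDA receptors activates, stood at 93.9% for Camk2d, 80.9% for Camk2g, 79.4% for Camk2b and 50.4% for Camk2a. The Src-family kinases Fyn and Src, which phosphorylate GluN2 subunits, stood at 48.5% and 40.0%, and the opposing phosphatase gene Ptpn5 at 14.2%.

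Of genes positive in any cell 19.2% passed 50% of cells. Among 8 trafficking genes 4 did, with a median share of 59.2%. They were Pacsin1 with 90.7%, Cask with 78.6%, Apba1 with 72.9% and Lin7a with 72.7%, the last 3 of them parts of a complex that links receptor vesicles to a motor. Kif17, the kinesin known to carry GluN2B vesicles, was positive in 7.42%. None of the 10 genes for glycine and D-serine supply passed 50%. Their median share was 23.4%, above the 9.75% over genes positive in any cell. Srr, which makes D-serine, was positive in 37.5% of cells, Slc1a4, a neutral amino acid transporter, in 36.0%, Slc7a10, which exchanges D-serine, in 2.54%, and Dao, which breaks it down, in 0 of 472, which by 3 counts of 472 allows up to 0.636%.

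Beside the other ionotropic glutamate receptors, NMDA receptor RNA per kb of all annotated exons lay between the AMPA and kainate families. For Grin1 this length was 9.70 kb, against 4.28 kb for its longest transcript, so the NMDA sum depends on the length used. The order of the families by longest transcript is not given here. The 7 members summed to a median of 29.9 CPM per kb (quartiles 13.1 and 46.4), against 59.9 (29.6 and 97.0) for the 4 AMPA receptor genes and 7.97 (1.56 and 20.5) for the 5 kainate receptor genes, with wide overlap between cells. Gria1 was positive in 19.1% of cells and Gria3 in 66.3%. No kainate gene reached 50%, against 19.2% of genes positive in any cell, and Grik5 came nearest with 47.7%.

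The genes whose levels ran most like the members' over 472 cells were sought among 9010 genes positive in 20% or more of cells, by Spearman correlation. For Grin1 they were Ptprs (0.520), Meg3 (0.493), Vwa5b2 (0.473), Gm26917 (0.471) and Slc4a3 (0.468). For Grin2a they were Slit2 (0.329), Nptx1 (0.328), Ptprd (0.320), Arpp21 (0.319) and Grm7 (0.312), and for Grin2b Unc13a (0.343), Atp8a1 (0.336), Lrp1 (0.332), Vipr2 (0.330) and Opcml (0.324). The 3 lists have no gene in common. Detection is shared by all of these: in the 399 cells with 3000 or more positive genes the Spearman correlation was 0.512 for Ptprs with Grin1, 0.326 for Slit2 and 0.344 for Nptx1 with Grin2a, and 0.273 for Unc13a with Grin2b. None of Grin1, Grin2a and Grin2b was among the nearest 5 of another, and Grin1 with Grin2a had a Spearman correlation of 0.134. The other members were positive in under 20% of cells, so they could not appear in these lists.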

How the data were processed

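The authors deposited 1 table of estimated counts (expected counts) for 55450 genes and 92 ERCC spike-in RNAs in 472 cells; 1.36% of its values are not whole. Per the labels' protocols, libraries were made by Smart-seq2 and sequenced as 150-bp paired reads; per the submitters' processing notes, STAR 2.7.0 and mm10 were used. The quantifier and annotation are not stated by any source used here. Rows carry cell names that match the sample titles.

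Counts were rounded to whole numbers, and CPM was computed over genes without spike-ins. All 55450 gene identifiers are in GENCODE M21, which gave positions and exon lengths. Runs A to E are groups of library names, and taking them as sequencing runs is a reading of those names. Intervals are Clopper-Pearson for shares, exact Poisson for cell numbers and Newcombe for differences of shares. With 1 group and no named animals, nothing was tested; no 2 cells had a correlation above 0.665, so none was counted as deposited more than once. Ribosomal RNA loci took a median of 17.1% of gene counts. The likeness and fold routines were checked on simulated data. Coding sequences, the longest reading frame of each gene, were aligned with MAFFT 7.526. The aligned bases themselves are not reported here.

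Members, lists and cell sets were chosen with earlier results of these data known; the highest cells and the splits by Tbr1 and by Muller glia markers were chosen after their values were seen. Named are all members, all genes of the lists, and the 5 genes most like each member positive in 20% or more of cells. Alternatives were other thresholds (1 and 100 CPM), cells thinned to 1000000 counts, CPM without ribosomal RNA loci, cells left out by run, by genes detected or by markers, and other lengths and minimums. Slc6a9 is in both the amacrine and the glycine lists, Grik1 in both the bipolar and the kainate lists. Computations ran in numpy 2.4.6, pandas 2.3.3, scipy 1.17.1 and matplotlib 3.10.9 under Python 3.11.15.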

Additional observations from a re-analysis of the deposited data

Results flagged for a closer look

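Outside the 7 genes, the antisense gene Grin1os, which overlaps Grin1, gave a signal in 11.7% of cells at 10 CPM. All 55 of these cells were Grin1-positive (13.5% of 408), against 0 of 64 Grin1-negative cells, which by 3 counts of 64 allows up to 4.69%, and its highest value was 178 CPM. Run A had it in 16.2% of cells and run D in 0 of 59, which allows up to 5.08%. With strand not given, these reads cannot be told apart from Grin1 reads. The ERCC spike-in RNAs took a median of 0.738% of all counts, and up to 31.1% in 1 cell; run D had the highest run median, 1.94%, against 0.517% to 0.891% in the other runs.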

How the results depend on the processing

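At 1 CPM the shares of positive cells were 90.3% for Grin1, 59.3% for Grin2a, 67.4% for Grin2b, 2.12% for Grin2c, 16.1% for Grin2d, 20.3% for Grin3a, 1.91% for Grin3b and 79.9% for any GluN2 gene, and 16.7% of Grin1-positive cells had no GluN2 gene, so Grin2b then stood above Grin2a. At 100 CPM they were 67.6% for Grin1, 31.6% for Grin2a, 8.26% for Grin2b, 0% for Grin2d, 4.45% for Grin3a, 0% for Grin3b, 36.4% for any GluN2 gene and 58.6% without one. In cells with 3000 or more positive genes Grin1 was at 94.2% and any GluN2 gene at 76.2%. Without cells with amacrine markers Grin1 was at 82.6%, Grin2a at 45.6% (48.3% with Pax6 not counted) and any GluN2 gene at 65.6%; without cells with bipolar markers Grin2a was at 48.6% and any GluN2 gene at 66.7%. Grin1 was at 90.6% in run A, 82.4% without run A and 90.3% without run D, and Grin3b was at 0% without run A. The Grin2a part of Grin2a and Grin2b was 73.7% with no minimum and 90.6% with a minimum of 100 CPM, and the longest transcript as length left it within the spread. Thinning and leaving out ribosomal RNA loci moved no share beyond its interval.

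Of 484 set differences under alternatives 36 changed sign, in 18 of 44 differences, and 3 of these were of a member past 2-fold in mean CPM: Grin3a in the Mmp9 and Htr1d set was 0.675 points higher without cells with amacrine markers, and in the Pou4f3 set 1.72 points higher without cells with bipolar markers and 1.10 points higher without run A. In the Tbr1 set the Grin2a difference lay between -34.0 and -7.66 points and the Grin3a difference between 8.34 and 35.5, with no change of sign in 11 settings; the smallest Grin2a difference was without run A. The Grin2a and Grin3a ratio was 0.15 at 100 CPM, where only 21 cells were positive for Grin3a and 149 for Grin2a. It was 0.869 at 1 CPM, 0.374 in run A and 0.916 without run A. Intervals of these ratios are not given here, and the cause was not tested. No paired analysis was possible because there is 1 group. A gene not called positive in a cell may still be present. Grin2b was read at 1 to under 10 CPM in 85 cells and Grin2a in 28, so the threshold decides the call there.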
